A study of Mus musculus with 8 samples.

Results

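The GABA-A receptor subunit genes described here are Gabra2, Gabra3, Gabra4, Gabra5, Gabrb1, Gabrb2 and Gabrd, 7 of the 45706 genes in the deposited tables, chosen by name and followed through all 8 samples. The GABA-A receptor is a chloride channel assembled from several subunits around a central pore and opened by GABA, the main inhibitory transmitter of the cortex. The alpha subunits set how the channel responds to GABA and to benzodiazepines, the beta subunits are needed for assembly and for the GABA binding site, and delta takes the place of gamma in receptors that lie outside synapses and carry tonic inhibition. Parvalbumin-expressing (PV+) interneurons are fast-spiking inhibitory cells, and through these receptors they also receive inhibition from other interneurons, PV+ cells among them.

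The study asked how PV+ interneurons of the primary somatosensory cortex (S1) respond to their own increased activity, and read the mRNA bound to their ribosomes. Every mouse carried PvalbFlp/+ and Neurod6Cre/+, and every mouse received at postnatal day 1 an adeno-associated virus that gives Flp-expressing cells an HA-tagged ribosomal protein, RPL10a, together with the designer receptor hM3Dq. Cre removes that construct from the Neurod6 lineage, which covers pyramidal cells, so the tag is meant for PV+ interneurons alone, and the titrated virus reached only some of them. The CNO group received 5 injections of 1 mg/kg clozapine-N-oxide, the ligand of hM3Dq, over about 48 h, and the VEH group received vehicle in its place, at an age of 42 to 70 days by the sample labels. Each of the 4 CNO and 4 VEH samples pooled tissue from 4 brains, so the spread between samples is a spread between pools. Total counts were 44064161 to 49413273 a sample, and 3 counts corresponded to 0.0605 to 0.0671 CPM (counts scaled to library size), a floor that covers counting error only.

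The VEH replicate 1 library stood apart from the others. The 12 markers of PV+ interneurons summed to 1277 in it in TPM, the length-normalized transcript abundance, against 3078 to 3357 in the other 3 VEH samples and 2712 to 4206 in the CNO samples. Pvalb itself was at 300.1 TPM in this sample and at 943 or more in the other VEH samples. The 12 pyramidal cell markers summed to 2379 TPM there, to 1698 to 2253 in the other VEH samples and to 1512 to 2061 in the CNO samples. Slc17a7, the vesicular glutamate transporter of pyramidal cells, was at 436 to 547 TPM in VEH, highest in replicate 1, and at 331 to 493 TPM in CNO. A marker index, the mean log2 CPM of the PV+ markers minus that of the pyramidal markers, ran from 0.46 to 1.56 in CNO and from -0.70 in VEH replicate 1 to 1.04 in VEH (difference of the group means, p = 0.257, two-sided exact permutation test). Markers of other cells were present as well, with no gene of any list at 0 in any sample. Summed TPM in CNO and in VEH was 603 to 699 and 693 to 810 for 7 markers of other interneurons, 502 to 591 and 516 to 658 for 8 of astrocytes, and 565 to 1024 and 780 to 1003 for 7 of oligodendrocytes. It was 66.2 to 97.7 and 82.2 to 114 for 7 of microglia and 22.4 to 64.3 and 34.1 to 50.3 for 5 of endothelial cells. In a ribosome pulldown from pooled tissue, fewer tagged cells, less RNA per cell and more RNA from untagged cells cannot be told apart. Fos, an immediate early gene that marks recent activity, was at 36.9 to 83.7 TPM in CNO and 13.8 to 20.6 TPM in VEH, without overlap, and its adjusted p was 0.0520 by the quasi-likelihood test of edgeR.

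The 7 genes lie on 5 chromosomes of the GRCm38 genome (GENCODE positions). Gabra2 (chr5:70957597-71095849, minus strand), Gabra4 (chr5:71569749-71658308, minus strand) and Gabrb1 (chr5:71658113-72149037, plus strand) are neighbours on chromosome 5. Gabrd lies at chr4:155384980-155398112 on the minus strand, Gabra5 at chr7:57407672-57510059 on the minus strand, Gabrb2 at chr11:42419757-42629028 on the plus strand and Gabra3 at chrX:72432681-72656848 on the minus strand. The exons of Gabra4 and Gabrb1 overlap by 46 bases on opposite strands, 0.756% of the exonic bases of Gabra4 and 0.332% of those of Gabrb1. Gabra5 overlaps the antisense gene Gm9962 by 148 bases, 4.98% of its exonic bases. The sources used here name no strand setting for the counting, so reads from these overlaps cannot be assigned to either gene. Sequence shared with other genes was low, at most 1.02% of the 31-base stretches of a gene's transcripts.

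RefSeq promoter windows of GRCm38.p6, from 250 bases before the transcript start to 30 bases past it, were found for 6 of the 7 genes. Windows for 4 genes are shown, chosen after their values were seen. By Pearson r of log2 CPM, Gabra2 went with Gabra4 (0.85) and Gabrb1 (0.80), and Gabra4 with Gabrb1 less closely (0.59). Gabrb2 went against Gabra2, Gabra4 and Gabrb1 (-0.75, -0.71 and -0.69). Gabra5, not shown, also went against Gabra4 (-0.83) and Gabra2 (-0.66). A link between these windows and the pattern across samples was not tested. The RefSeq starts of Gabra4 and Gabrb1 lie 387 bases apart, each inside the other gene. Capitals mark matches, on either strand, to an EGR motif (GCGNGGGCG), a TATA box (TATAAA) or a CRE core (TGACG), all given 5′ to 3′ on the strand of the gene.
Gabra2 (chr5:71095820-71096099, minus strand): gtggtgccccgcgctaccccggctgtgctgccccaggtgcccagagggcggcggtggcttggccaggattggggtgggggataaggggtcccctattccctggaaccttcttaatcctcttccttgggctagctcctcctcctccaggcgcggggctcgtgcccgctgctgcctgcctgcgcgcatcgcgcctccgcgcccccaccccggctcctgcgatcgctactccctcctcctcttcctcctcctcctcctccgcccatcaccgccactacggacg
Gabra4 (chr5:71658279-71658558, minus strand): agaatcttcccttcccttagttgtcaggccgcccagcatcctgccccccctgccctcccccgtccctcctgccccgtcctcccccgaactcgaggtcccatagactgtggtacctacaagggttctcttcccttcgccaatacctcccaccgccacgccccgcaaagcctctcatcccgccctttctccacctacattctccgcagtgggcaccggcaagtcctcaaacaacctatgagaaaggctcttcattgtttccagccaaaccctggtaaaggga
Gabrb1 (chr5:71657671-71657950, plus strand): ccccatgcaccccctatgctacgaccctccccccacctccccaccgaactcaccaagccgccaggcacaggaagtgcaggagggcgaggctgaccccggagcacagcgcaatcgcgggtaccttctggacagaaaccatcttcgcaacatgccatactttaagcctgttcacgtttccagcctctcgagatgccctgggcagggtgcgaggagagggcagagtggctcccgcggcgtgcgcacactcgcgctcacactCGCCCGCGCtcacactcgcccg
Gabrb2 (chr11:42420190-42420469, plus strand): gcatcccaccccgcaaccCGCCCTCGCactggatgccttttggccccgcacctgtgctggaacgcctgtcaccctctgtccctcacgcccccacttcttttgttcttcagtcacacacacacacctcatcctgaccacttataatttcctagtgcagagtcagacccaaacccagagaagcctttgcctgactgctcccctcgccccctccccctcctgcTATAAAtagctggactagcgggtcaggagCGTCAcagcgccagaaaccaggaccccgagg

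The Gabra2 and Gabrb1 windows were rich in CpG, with 22 and 23 CpG pairs in 280 bases, and the Gabra4 and Gabrb2 windows held 12 and 11. The Gabrb1 window held 1 EGR match, and the Gabrb2 window held 1 EGR match, 1 TATA match and 1 CRE core. RefSeq gives a second start for Gabrb1 and further starts for Gabrb2, and these windows, with 9 CpG pairs for Gabrb1 and 9 and 8 for Gabrb2, matched none of the motifs. Of 32851 RefSeq windows of this length, 5.30% held the EGR letters, 13.1% the TATA letters and 19.9% the CRE core. The full CRE (TGACGTCA, which contains the core) and the AP-1 motif (TGANTCA) were in 1.74% and 7.46% of all windows and in none of the windows of these genes. The Gabra2 and Gabra4 windows matched none of the 5 motifs. These are matches of letters in 1 window and not measured binding.

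All 7 genes were well detected, with estimated counts from 944 for Gabra5 in VEH replicate 1 to 9690 for Gabra4 in the same sample. TPM corrects for transcript length, so levels of different genes were compared on that scale alone. Gabra4 was the highest at a mean of 149 TPM over the 8 samples, followed by Gabrd at 109.0 and Gabrb2 at 89.7. A second tier lay well below, with Gabrb1 at 26.3, Gabra2 at 25.8, Gabra3 at 20.8 and Gabra5 at 20.5 TPM. The pulldown also held mRNA of other cells, so these levels and their order are not those of PV+ interneurons alone. How much of each level came from other cells was not tested. The order was set from these same values, so the test of neighbours says only whether they differed beyond their spread. By that measure the upper 3 neighbour pairs differed within samples. Gabra4 exceeded Gabrd by 0.42 ± 0.35 log2 units of TPM (SD over 8 samples), Gabrd exceeded Gabrb2 by 0.28 ± 0.13 and Gabrb2 exceeded Gabrb1 by 1.80 ± 0.41, each in 8 of 8 samples (adjusted p = 0.0156 for each, exact sign-flip permutation test over 6 neighbour pairs). The 4 lower genes did not separate. The difference was 0.02 ± 0.14 between Gabrb1 and Gabra2, 0.30 ± 0.42 between Gabra2 and Gabra3 and 0.01 ± 0.24 between Gabra3 and Gabra5 (adjusted p = 0.797, 0.164 and 0.836, same permutation test).

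**Figure D1:**
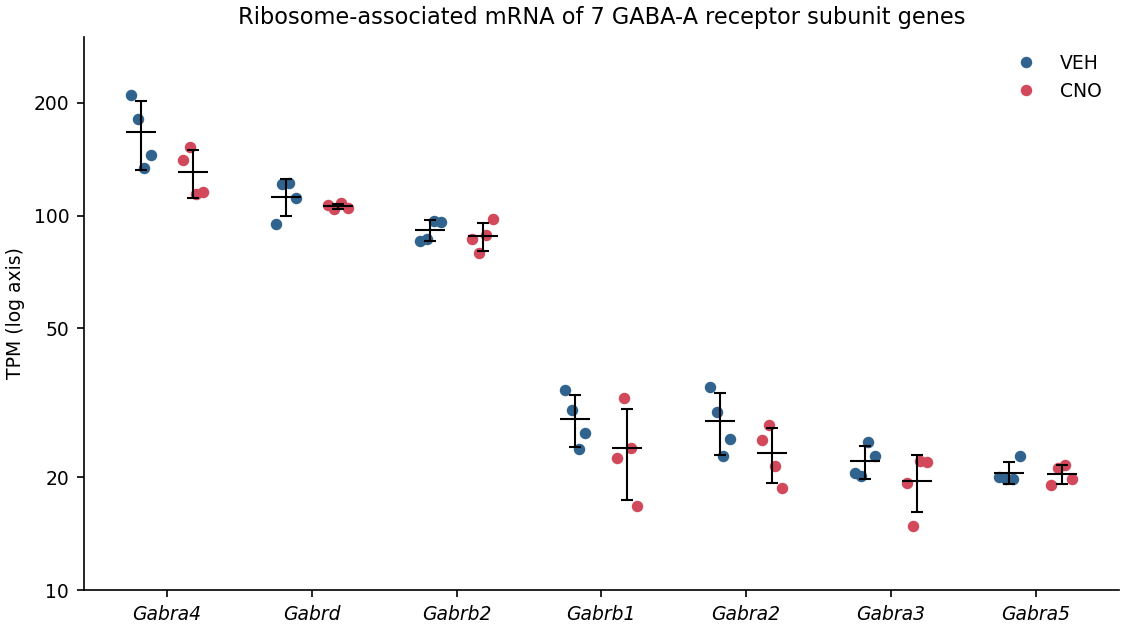
TPM (log axis) of the 7 subunit genes in order of mean level; each point is 1 sample, the dash and bar are mean and SD of the 4 VEH (blue) or 4 CNO (red) samples. Gabra4, Gabrd and Gabrb2 lie above 79 TPM in every sample and the other 4 genes below 35, and the groups overlap for all 7.

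CNO against VEH gave no called change in any of the 7 genes. A call needed 3 things, an adjusted p below 0.05, more than a 1.5-fold change and a mean TPM above 1. By the quasi-likelihood test of edgeR, 0 of the 7 passed, as did 0 of the 17495 genes tested (0.0%). The robust likelihood ratio test of edgeR and the Wald test of DESeq2 put 15 and 11 of all genes at an adjusted p under 0.05, with 0 of the 7 among them. At an unadjusted p under 0.05 there was 1 of the 7, Gabrb1, which was lower with CNO, against 4.09% of all genes in either direction and 2.65% of all genes in the lower direction, and 0 of the 7 were higher at that p, against 1.44%. The estimates were below 0 for 5 genes and above 0 for 2, with a median log2 fold change of -0.09 against 0.00 over all genes. The groups overlapped in log2 CPM for 7 of the 7 genes, while 2.42% of all genes had groups that did not overlap.

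Among the alpha subunits, Gabra4, which pairs with delta in receptors outside synapses, was at 141, 152, 114 and 115 TPM in CNO replicates 1 to 4 and at 209, 181, 134 and 145 TPM in VEH replicates 1 to 4. VEH replicates 1 and 2 were the highest samples, and the ranges of the groups overlapped. The log2 fold change was -0.19 (SE 0.11, 95% interval -0.43 to 0.06, adjusted p = 0.817 in edgeR). On the TPM scale it was larger, -0.34 with limma on log2(TPM + 1), at an unadjusted p of 0.0492. With an offset for the effective gene length of each sample in edgeR it was -0.27, and without VEH replicate 1 it was -0.12.

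Gabra2, a synaptic alpha subunit, was at 25.1, 27.7, 21.5 and 18.8 TPM in CNO and at 34.9, 29.8, 22.9 and 25.3 TPM in VEH. The lowest 2 samples were CNO replicates 4 and 3, and the highest 2 were VEH replicates 1 and 2. Its log2 fold change was -0.25 (SE 0.12, interval -0.52 to 0.02, adjusted p = 0.817 in edgeR), a CNO to VEH ratio of 0.841 with bounds of 0.697 and 1.01.

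Gabra3, another alpha subunit, was at 19.3, 14.8, 22.1 and 22.0 TPM in CNO and at 20.5, 20.1, 24.9 and 22.8 TPM in VEH. CNO replicate 2 was the lowest of all samples, and the other 7 lay between 19.3 and 24.9 TPM. The log2 fold change was -0.09 (SE 0.15, interval -0.43 to 0.25, adjusted p = 0.878 in edgeR), and without CNO replicate 2 it was 0.038. Gabra5, an alpha subunit best known from receptors outside synapses in the hippocampus, was the steadiest of the alpha genes, at 19.1, 21.2, 21.5 and 19.9 TPM in CNO and 20.1, 19.8, 19.8 and 22.7 TPM in VEH. Its log2 fold change was 0.06 (SE 0.09, interval -0.14 to 0.26, adjusted p = 0.871 in edgeR).

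Of the beta subunits, Gabrb1 was at 22.6, 32.5, 23.9 and 16.8 TPM in CNO and at 34.2, 30.2, 23.8 and 26.2 TPM in VEH. In CPM, 3 of the 4 CNO samples lay below the lowest VEH sample, with CNO replicate 2 the exception. Its log2 fold change was -0.29 (SE 0.12, interval -0.57 to -0.02), with an unadjusted p of 0.0371 and an adjusted p of 0.817 in edgeR. The two-sided exact permutation test on log2 CPM gave p = 0.0857, where the smallest value that 4 against 4 samples allow is 0.0286. Without VEH replicate 1 the log2 fold change was -0.24 and the unadjusted p 0.0912, and without CNO replicate 2 they were -0.40 and 0.00394, so that its place under 0.05 depended on which sample was left out. With the effective length offset the log2 fold change was -0.18 and the unadjusted p 0.261.

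Gabrb2, the other beta subunit and the more abundant one, was at 86.6, 79.5, 88.8 and 97.6 TPM in CNO and at 85.6, 86.6, 96.9 and 96.2 TPM in VEH. In TPM the highest and the lowest sample were both CNO samples. In CPM, the scale of the fit, VEH replicate 1 was the lowest, at 105 against 112 in CNO replicate 2. Its log2 fold change was 0.07 (SE 0.16, interval -0.28 to 0.43, adjusted p = 0.910 in edgeR), and it turned to -0.04 without VEH replicate 1. Gabrd, the delta subunit, was at 107, 104, 108 and 105 TPM in CNO and at 94.7, 121, 122 and 111 TPM in VEH. The 4 CNO samples lay within the VEH range and close together, with an SD of 1.74 TPM against 12.7 TPM in VEH, of which VEH replicate 1 was the lowest. The log2 fold change was -0.02 (SE 0.11, interval -0.25 to 0.22, adjusted p = 0.971 in edgeR). Every one of the 7 intervals lay within 1.5-fold in both directions.

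**Figure D2:**
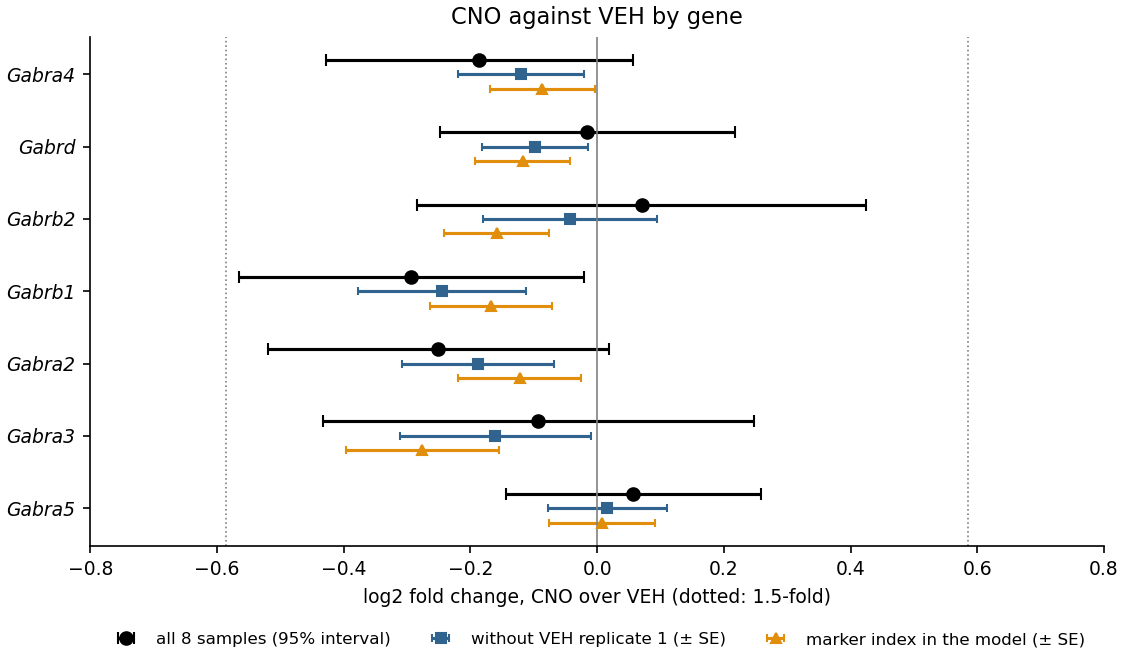
Log2 fold change of CNO over VEH for each gene: black, all 8 samples with the 95% interval; blue, without VEH replicate 1; orange, with the marker index in the model (both ± SE). Dotted lines mark 1.5-fold, which no black interval reaches, and the estimate of Gabrb2 moves from 0.07 to -0.04 and -0.16.

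The 7 genes differed in how they followed the marker index, in CPM. Gabrb2 rose with the index over the 8 samples (Pearson r = 0.89, p = 0.00067, adjusted over the 7 genes 0.0047; Spearman rho = 0.83, p = 0.0154, adjusted 0.0538; exact permutation over all orders), so that the rank correlation did not pass after adjustment. Gabrb1 went the other way (r = -0.82, p = 0.00928, adjusted 0.0316; rho = -0.90, p = 0.00456, adjusted 0.0319, same permutation test), as did Gabra2 (r = -0.81, adjusted permutation p = 0.0316; rho = -0.71, adjusted 0.101) and Gabra4 (r = -0.80, adjusted permutation p = 0.0316; rho = -0.57, adjusted 0.212). For Gabrd, Gabra5 and Gabra3, r was 0.72, 0.64 and 0.53 and the adjusted permutation p was 0.0864, 0.0891 and 0.181. Their rho was 0.52, 0.38 and 0.79, with adjusted permutation p of 0.229, 0.360 and 0.0652. Without VEH replicate 1 and CNO replicate 4, the samples farthest from the median index, r was 0.83 for Gabrb2, -0.73 for Gabrb1 and 0.74 for Gabra3, and -0.39 for Gabra2 and -0.42 for Gabra4, whose relation therefore rested on those samples. These directions were not unusual among genes. Of 15173 genes with a mean TPM over 1, 17.4% had an r at least as high as that of Gabrb2 and 9.24% an r as low as that of Gabrb1.

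**Figure D3:**
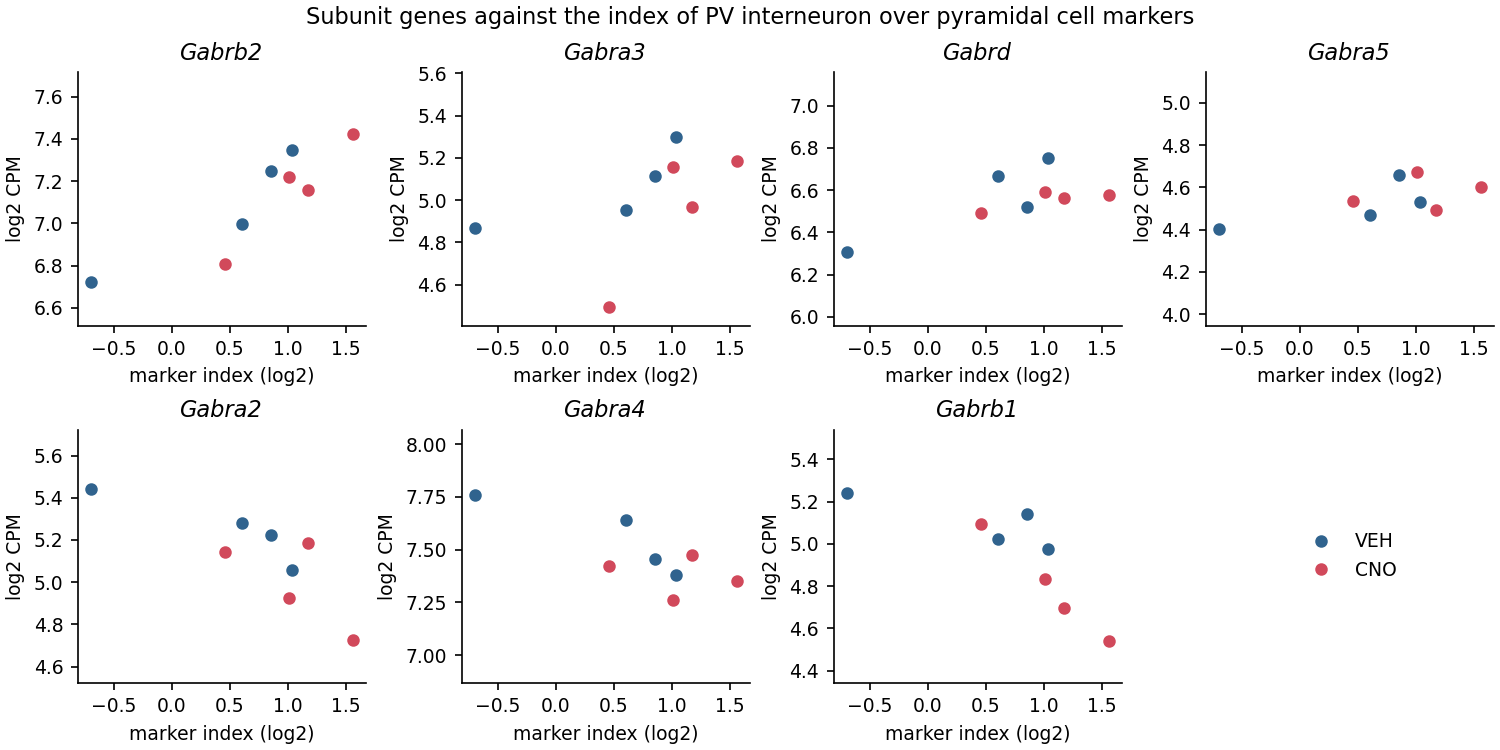
Log2 CPM of each subunit gene (vertical axes, equal spans) against the marker index (log2), 1 point a sample, VEH blue and CNO red. Gabrb2, Gabra3 and Gabrd climb along the index in both groups, and Gabra2 and Gabrb1 descend in both. Gabra4 descends mainly in VEH (Pearson r = -0.89, against -0.19 in CNO), and the point at -0.70 is VEH replicate 1.

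With the index as a covariate in the edgeR model, the estimates shifted. Gabra2, Gabra4 and Gabrb1 moved closer to 0, at -0.12, -0.09 and -0.17, and Gabrb2 turned from 0.07 to -0.16. Gabra3 moved from -0.09 to -0.28, with an unadjusted p of 0.0466, and Gabrd to -0.12. Gabra5 was at 0.01, the only one of the 7 not below 0 in that fit. None of these passed the adjusted threshold, and the part of the cell type markers in the group values was not tested beyond this fit.

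The makeup of the subunit pool was compared by TPM ratios within samples. These do not depend on library scaling but do depend on the effective gene length estimated in each sample. Gabrd to Gabra4 was 0.758, 0.685, 0.947 and 0.909 in CNO and 0.453, 0.672, 0.910 and 0.768 in VEH, with VEH replicate 1 the lowest. The log2 difference was 0.27 for Gabrd to Gabra4, 0.23 for Gabrb2 to Gabrb1, 0.27 for Gabra5 to Gabra2 and -0.16 for Gabra4 to Gabra3, and no ratio differed beyond its spread (p = 0.314, 0.571, 0.257 and 0.629, adjusted p = 0.629 for each, two-sided exact permutation test). With CPM in place of TPM they were, in the same order, 0.17, 0.38, 0.31 and -0.07 (adjusted p = 0.610, 0.457, 0.457 and 0.829, same permutation test). The size of the TPM differences moved with single libraries, in both directions. Without VEH replicate 1 they were 0.07 for Gabrd to Gabra4, 0.14 for Gabra5 to Gabra2 and -0.0093 for Gabra4 to Gabra3. Without CNO replicate 4 the difference of Gabrb2 to Gabrb1 was 0.02. The largest were 0.41 for Gabrd to Gabra4 without VEH replicate 3 and 0.36 for Gabra5 to Gabra2 without VEH replicate 4. Without CNO replicate 2, Gabrb2 to Gabrb1 and Gabra4 to Gabra3 were at their largest, 0.44 and -0.36. No difference changed sign when a sample was left out. Gabra4 made up 31.6 ± 3.3% of the summed TPM of the 7 genes in CNO and 35.3 ± 5.2% in VEH (SD, n = 4), Gabrd 25.8 ± 1.3% and 24.0 ± 3.6%, and Gabrb2 21.5 ± 2.7% and 19.5 ± 2.4%. The other 4 genes held at most 6.06% each in either group mean.

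**Figure D4:**
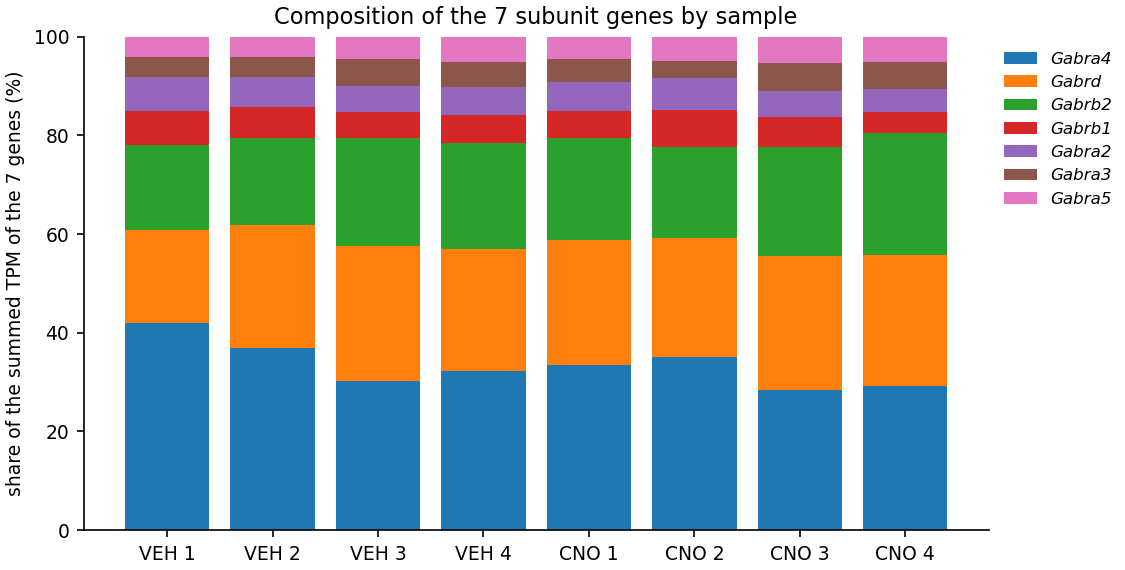
Share of each gene in the summed TPM of the 7 genes, 1 bar a sample from 0 to 100%. Gabra4, Gabrd and Gabrb2 make up most of every bar, and the share of Gabra4 is largest in VEH replicate 1.

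The sum of the 7 genes was 395 to 432 TPM in CNO and 444 to 499 TPM in VEH, without overlap of the groups. Without Gabra4 the sums were 279 to 286 and 290.0 to 310 TPM, again without overlap. In CPM the groups did overlap, at 489 to 541 in CNO and 533 to 564 in VEH. The sums were looked at after the values of the single genes were known and are a description with no test.

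Partner genes of the receptor, proteins that cluster, anchor, assemble or move it, gave 0 calls of 24 in edgeR. All 24 were tested and 0 reached an unadjusted p under 0.05 in edgeR, against 4.09% of all genes. Estimates were above 0 for 18 and below 0 for 6, against 50.4% of all genes above 0, with a median log2 fold change of 0.09 and a range from -0.17 to 0.30. VEH replicate 1 was the lowest of the 8 samples for 15 of those 18, and the share of all genes for which this holds is not given here. Without that sample 17 of 24 lay above 0 with a median of 0.034, and with the marker index in the model 8 of 24 did, with a median of -0.03. Without VEH replicate 4, 21 of 24 lay above 0, with a median of 0.12. What lay behind this tilt was not tested. Of 9 genes that cluster or anchor receptors 7 lay above 0, and of 15 that assemble, traffic or turn them over 11 did. The 4 most abundant were Ap2m1, the clathrin adaptor subunit that binds receptor tails for endocytosis, Gabarapl1, of the family that binds gamma subunits in trafficking, Nsf, the membrane fusion ATPase, and Prkcb, a kinase. Their log2 fold changes were -0.01, 0.18, 0.16 and -0.08, with adjusted p of 0.976, 0.820, 0.822 and 0.842 in edgeR. Gphn, which encodes the scaffold gephyrin and was singled out after its values were seen, was the 1 partner whose groups did not overlap, against 2.42% of all genes. Its CPM was 42.8, 38.8, 38.3 and 42.7 in CNO and 33.2, 37.8, 36.5 and 37.6 in VEH, a log2 fold change of 0.16 (SE 0.09) with an adjusted p of 0.817 in edgeR.

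**Figure D5:**
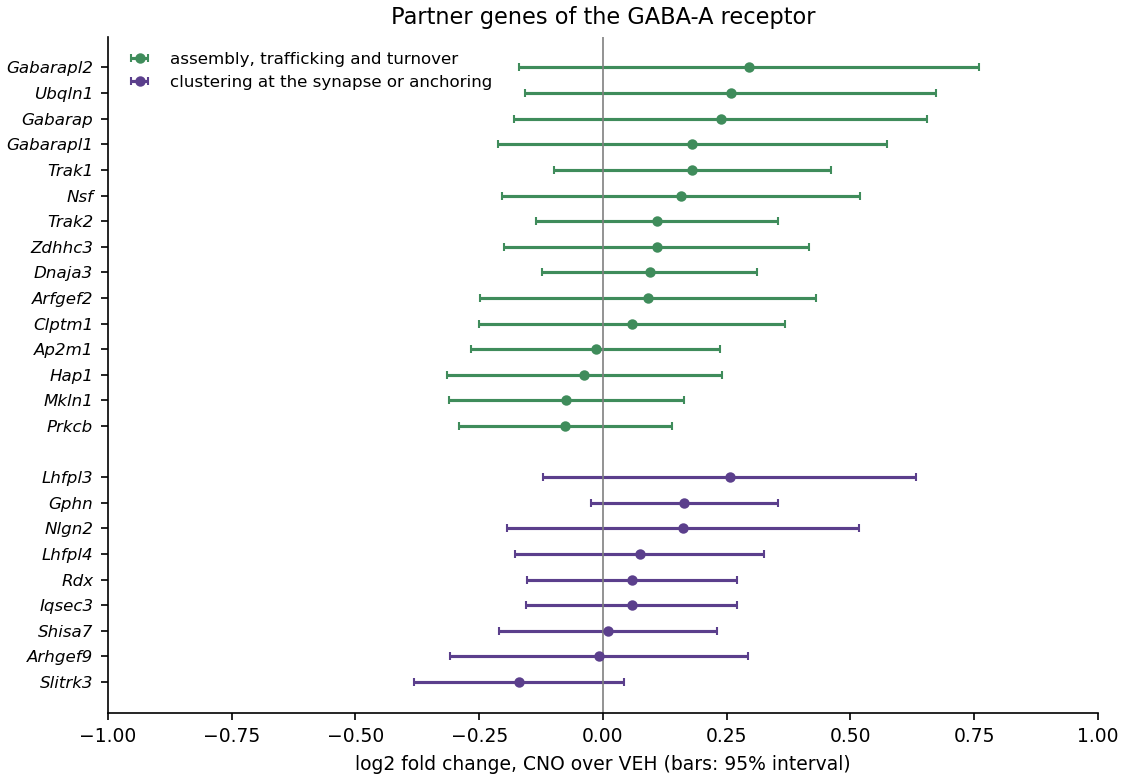
Log2 fold change of CNO over VEH for the 24 partner genes with 95% intervals, green for assembly, trafficking and turnover and purple for clustering and anchoring. All intervals span 0 and 18 of the 24 points lie to its right with all 8 samples in the fit.

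The genes whose pattern was most like each subunit gene were found by Pearson r of log2 CPM over the 8 samples among 9660 genes with a mean TPM over 10. They were Zfp280d (r = 0.98) and Jakmip1 (0.98) for Gabra2, Gm7666 (0.98) and Tmed9 (0.96) for Gabra3, Csrp2bp (0.97) and Wscd2 (0.97) for Gabra4, and Fbf1 (0.95) and Ube4a (0.94) for Gabra5. For the others they were Rasa3 (0.99) and Nrde2 (0.98) for Gabrb1, B4galt6 (0.99) and Rhobtb2 (0.99) for Gabrb2, and B4galnt1 (0.98) and Erp29 (0.96) for Gabrd. Each is the top of a long list over the same libraries and is given as a description. Among the subunit genes themselves, r was 0.85 between Gabra4 and Gabra2, 0.80 between Gabrb1 and Gabra2, 0.84 between Gabrb2 and Gabra3 and -0.83 between Gabra5 and Gabra4.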

How the data were processed

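Ribosome-associated mRNA was pulled down with anti-HA beads from S1 tissue, amplified with a SMARTer Ultra Low kit and sequenced on a HiSeq instrument. Per the study's methods, the authors used Trim Galore for trimming, STAR for alignment to GRCm38/mm10, and Salmon with tximport for quantification. The authors deposited estimated counts per gene without normalization, and TPM, which divides by transcript length and fixes the sum per sample.

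Rounded counts were fitted with edgeR 4.0.16 (R 4.3.3). A gene below 10 counts in at least 4 samples was left out. After TMM scaling, the quasi-likelihood test was applied to all 17495 remaining genes and its p-values were adjusted by Benjamini-Hochberg. Log2 CPM used a prior count of 2. Alternatives used DESeq2 1.42.0, limma 3.58.1 and sva 3.50.0, and permutation tests used SciPy 1.17.1. The tests were tested on simulated data. Gene names came from the deposited gene name column, positions from GENCODE on GRCm38. Genes named were the 7 subunit genes, partners at an unadjusted p under 0.05, the 4 partners with the highest mean TPM, the 2 genes most like each subunit gene, and Fos, Pvalb and Slc17a7 as checks. As 0 partners reached that p, Gphn fell outside the rule and was named after its values were seen. The genes and lists were chosen with earlier results of these data known. Other genes of the receptor family are not reported here.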

Additional observations from a re-analysis of the deposited data

How the results depend on the processing

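In all 21 alternatives, 0 of the 7 subunit genes were called, and the adjusted p of single genes lay between 0.472 and 1.00. The number at an unadjusted p under 0.05 was 1 of 7, Gabrb1, but the gene was not always the same. Of the 21 alternatives, Gabrb1 was under 0.05 in 10, Gabra2 in 6, Gabra4 in 2 (both limma fits) and Gabra3 in 2 (marker index and surrogate variable). The number was 2 with library size only and with a block of replicates 1 and 2 against 3 and 4, 0 with the effective length offset, and 0 to 2 when each sample was left out. For the partners it was 0, 1 with limma on log2(TPM + 1) and on log2(TPM + 0.1), and 0 to 2 when each sample was left out. Gabra2, Gabra4 and Gabrb1 kept a negative estimate in every alternative. Gabrb2 turned to -0.053 with limma on both TPM scales, to -0.16 with the marker index and to -0.15 with 1 surrogate variable, and lay between -0.043 and 0.17 when each sample was left out. Gabra5 turned to -0.011 with limma on both scales. When each sample was left out, Gabra3 lay between -0.18 and 0.038 and Gabrd between -0.097 and 0.050. Neighbours in the order of TPM that differed numbered 3 of 6 and 3 to 4 when each sample was left out. They numbered 0 in the 4 VEH or 4 CNO samples alone, where the smallest exact permutation p is 0.125. The causes of these shifts were not tested.

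Library size alone moved the median log2 fold change of all genes to -0.05. Same-numbered samples correlated at 0.03, -0.03, 0.16 and 0.24 in their deviations, so single numbers did not pair them. A replicate block called 0 subunit genes, and the 1 under 0.05 was then Gabra2 (log2 fold change -0.26, unadjusted p 0.0414), with Gabrb1 at -0.30 and 0.0572. Replicates 1 and 2 and replicates 3 and 4 did deviate together across groups. Of 8 CNO and VEH pairs within these sets 7 correlated above 0 (-0.03 to 0.43), and of 8 pairs across them 0 did (-0.40 to -0.04). These counts are not separate evidence. Deviations were taken from each group's mean, so values above 0 within sets bring values below 0 across them. The highest pair, at 0.43, was CNO replicate 2 with VEH replicate 1. Replicates 3 and 4 minus 1 and 2 differed by 0.38 for Gabrb2, 0.36 for Gabra3 and -0.28 for Gabra2 on the log2 scale (adjusted p of 0.146, 0.159 and 0.176 in edgeR), beside CNO estimates from -0.29 to 0.07. With these sets as a block, Gabra2 was at an unadjusted p of 0.0161 and Gabrb1 at 0.0287. The labels do not say what the sets share. In CNO the marker index was 1.17 and 0.46 in replicates 1 and 2 and 1.01 and 1.56 in replicates 3 and 4. In VEH it was -0.70 and 0.61 in replicates 1 and 2 and 1.04 and 0.86 in replicates 3 and 4. The part of the index in the differences between the sets was not tested.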
